A study of Mus musculus with 9 samples.

Results

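The coat of the lipid droplet and the enzymes that break down its stored lipid were followed in RAW 264.7 macrophages, a mouse macrophage-like cell line. The set holds 10 genes named by their function: the coat proteins *Plin2* and *Plin3*, the lipase *Pnpla2* with its co-activator *Abhd5* and its inhibitors *Hilpda* and *G0s2*, the hormone-sensitive lipase *Lipe*, the monoglyceride lipase *Mgll*, the cholesterol-esterifying enzyme *Soat1* and the cholesteryl ester hydrolase *Nceh1*. They are 10 of the 54432 genes in the table, and 8 of them were detected well enough to be tested. RNAseq was available for 9 libraries: 3 of untreated control cells, 3 of cells treated with VLDL-sized emulsion particles (VLDLsep) and 3 of cells treated with chylomicron-sized (CHYL-sized) emulsion particles (CHYLsep). Both particles are artificial, triglyceride-rich and stabilized with casein rather than with apolipoproteins. The labels give a dose of 1 mM and an exposure of 6 hours for both, although one legend of the study gives a lower dose for the CHYL-sized particles, and the control group is untreated, not treated with an empty carrier. All groups share the line, a medium with 10% fetal bovine serum and low passage numbers, and the methods describe pooling within an experiment, so a library stands for 1 pool of 1 cell line.

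Macrophages store surplus fatty acids as triglycerides, and surplus cholesterol as cholesteryl esters, in lipid droplets. The droplet surface is covered by perilipins, of which PLIN2 is bound to the droplet for most of its life and PLIN3 moves to it from the cytosol. ATGL, the product of *Pnpla2*, removes the first fatty acid from a triglyceride. It is switched on by ABHD5 (also called CGI-58) and held back by HILPDA and G0S2. Hormone-sensitive lipase acts mainly on the diglyceride that remains, and monoglyceride lipase on the last step. In the cholesterol branch, SOAT1 (ACAT1) forms cholesteryl esters and NCEH1 hydrolyses them. *Plin2* and *Hilpda* are known to respond to fatty acids through PPARs, and *Hilpda* also to hypoxia-inducible factors.

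The promoters of 3 of these genes are shown because *Plin2* and *Hilpda* had the largest rises, and *Lipe* was the gene that fell. Each sequence runs 5′ to 3′ on the gene's own strand, from 250 bases before the RefSeq start site to 10 bases after it, in the build GRCm38.p6. Capitals mark the letters ACGTG on either strand, a form of the core of the element that binds hypoxia-inducible factors. Where both strands match they form the E-box CACGTG. The form of the core that starts with G was not searched and is not marked.
Plin2, chr4:86670050-86670309, minus strand: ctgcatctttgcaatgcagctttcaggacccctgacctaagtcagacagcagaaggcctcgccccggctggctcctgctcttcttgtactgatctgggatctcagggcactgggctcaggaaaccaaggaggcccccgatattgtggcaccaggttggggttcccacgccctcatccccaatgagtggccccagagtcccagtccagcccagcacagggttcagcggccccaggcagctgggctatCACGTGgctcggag
Hilpda, chr6:29272376-29272635, plus strand: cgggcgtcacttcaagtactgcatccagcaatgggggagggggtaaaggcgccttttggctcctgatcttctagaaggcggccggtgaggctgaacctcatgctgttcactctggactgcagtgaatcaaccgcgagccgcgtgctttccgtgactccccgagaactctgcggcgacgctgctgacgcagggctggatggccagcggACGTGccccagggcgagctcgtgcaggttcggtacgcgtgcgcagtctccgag
Lipe, chr7:25395978-25396237, minus strand: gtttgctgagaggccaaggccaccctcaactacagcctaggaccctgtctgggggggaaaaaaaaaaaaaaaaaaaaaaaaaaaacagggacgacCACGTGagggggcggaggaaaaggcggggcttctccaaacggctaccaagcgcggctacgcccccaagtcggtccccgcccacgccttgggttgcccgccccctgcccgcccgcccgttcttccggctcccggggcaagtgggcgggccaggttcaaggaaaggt
The *Plin2* window held an E-box that spanned the start site, the *Lipe* window held one further upstream, and the *Hilpda* window held ACGTG on its own. *Hilpda* and *Lipe* each have a second RefSeq start with a window of its own that held no such match. For both genes the window with a match is the one printed. The *Hilpda* start without a match is the one at the annotated start of the gene. Over whole windows of 300 bases, ACGTG was found in 6 of the 13 windows of the 10 genes and in 19.6% of all 32851 promoter windows, and the E-box in 4 of 13 and in 7.15%. The windows with ACGTG belonged to *Hilpda*, *Lipe*, *Mgll*, *Nceh1* and *Plin2*. GC content was 50.7% to 72.3% in the 13 windows, against a median of 52.7% over all windows (quartiles 45.7% and 61.7%). The share over all windows is therefore not a background of like GC content. The antioxidant response element TGACNNNGC, searched on both strands, was in the *Soat1* window alone among the 13, against 12.4% of all windows. A perfect direct repeat of the PPAR half-site with a spacing of 1 base (DR1) was in 0 of the 13 and in 0.0396% of all windows. These matches describe letters only and were not tied to any measurement of binding.

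Levels are given as cpm, that is counts scaled to a common library size, after TMM normalization (a trimmed mean of the log ratios between libraries). Every library was about equally deep, with totals between 22393893 and 22856792 estimated counts. The libraries numbered 3 stood apart from the others in each group: the median absolute log2 difference per gene was 0.0615 to 0.0778 between libraries 1 and 2 of a group and 0.116 to 0.133 where library 3 was one of the pair. VLDL-sized library 3 was nearer to CHYL-sized library 3 (0.0827) than to libraries 1 and 2 of its own group (0.133 and 0.131). Control library 3 was nearest to its own group (0.123 and 0.126, against 0.178 to CHYL-sized library 3). The labels do not say whether a number marks a shared experiment, and the main fit does not use the number. All 10 macrophage markers examined were detected, with a summed level of 7555 to 7795 cpm in control, 6948 to 7365 in VLDL-sized and 7090 to 7527 in CHYL-sized libraries. The 6 adipocyte markers, among them *Adipoq*, *Lep*, *Cfd* and *Cidec* at 0, never summed to more than 0.0913 cpm. Of 5 fibroblast markers only *Pdgfra* was detected (at most 2.44 cpm) with *Dcn* at 0, and the 5 lymphocyte markers summed to at most 0.214 cpm. In bulk RNA, fewer cells expressing a gene and less RNA per cell cannot be told apart.

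Treatment with VLDL-sized emulsion particles was accompanied by higher expression of 7 of the 8 tested genes and lower expression of *Lipe*. After CHYL-sized particles 6 rose, *Lipe* fell and *Nceh1* did not pass the test. A gene is said to have risen or fallen where the adjusted p of limma with voom weights, corrected by Benjamini-Hochberg over 12637 genes, was under 0.05. By that rule 35.6% of all tested genes changed after VLDL-sized particles, 17.8% upwards and 17.9% downwards, and 25.7% after CHYL-sized particles, 12.7% upwards and 13.0% downwards. The median log2 fold change of the 8 genes was 0.297 and 0.280, against -0.000282 and 0.00133 over all tested genes. In 8 genes after VLDL-sized and in 7 after CHYL-sized particles the treated and control libraries did not overlap, where 47.4% and 41.7% of all tested genes showed no overlap. Both comparisons use the same 3 control libraries, so their likeness is not independent evidence. The methods state biological triplicates, but the labels do not say that the libraries came from separate cultures, so the p-values measure the spread between these libraries.

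**Figure D1:**
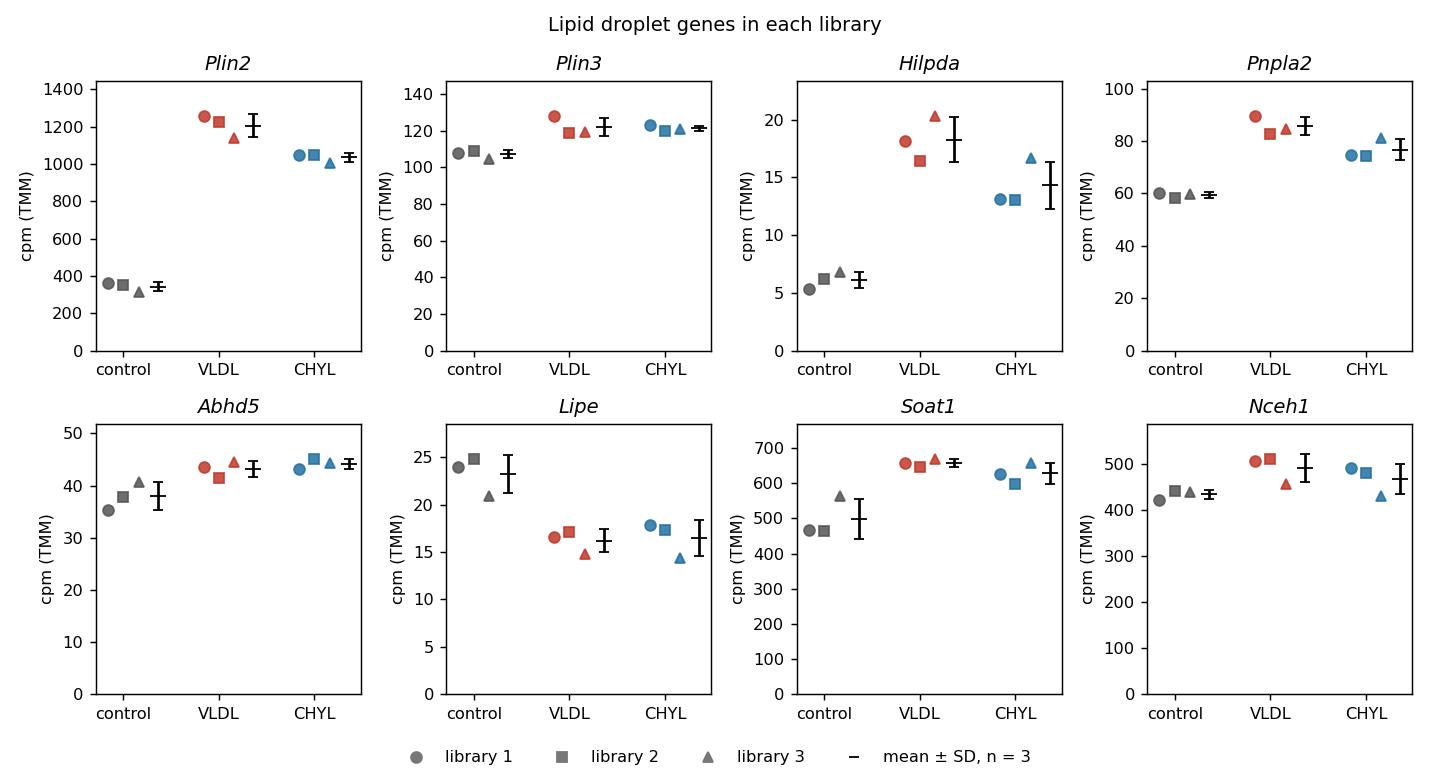
Levels of the 8 tested genes in each library, in TMM-normalized cpm on axes that start at 0, with 1 symbol per library number and the mean ± SD of 3 libraries in black. *Plin2* lay between 316 and 363 cpm in control and above 1005 in every treated library, and *Lipe* was lower in all 6 treated libraries than in any control.

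*Plin2* encodes the constitutive droplet coat protein. Its gene lies at chr4:86648386-86670060 on the minus strand, and the principal transcript has 8 exons. The 3 control libraries gave 363, 349 and 316 cpm, the VLDL-sized libraries 1255, 1224 and 1136 cpm, and the CHYL-sized libraries 1050, 1050 and 1005 cpm. All 6 treated libraries were therefore far above the controls, and all 3 VLDL-sized libraries were above all 3 CHYL-sized ones. Between the particles, 1426 of the 12637 tested genes showed no overlap. The rise was 3.52-fold after VLDL-sized particles (log2 fold change 1.82, SE 0.061, limma adjusted p = 1.87e-08). After CHYL-sized particles it was 3.03-fold (log2 fold change 1.60, SE 0.061, limma adjusted p = 5.55e-08). Between same-numbered libraries the log2 difference from control after VLDL-sized particles lay between 1.79 and 1.85. Library 3 had the lowest *Plin2* level of its group in all 3 groups.

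*Plin3*, the coat protein that is recruited from the cytosol, changed far less. Its gene is at chr17:56277476-56292873 on the minus strand. Control libraries gave 108, 109 and 105 cpm, VLDL-sized libraries 128, 119 and 119 cpm, and CHYL-sized libraries 123, 119.9 and 121 cpm. The groups did not overlap with control, but the rise was small, with a log2 fold change of 0.19 (SE 0.046, limma adjusted p = 0.00924) after VLDL-sized and 0.18 (SE 0.046, limma adjusted p = 0.0165) after CHYL-sized particles. Without control library 1 or without CHYL-sized library 1 the second call was lost (limma adjusted p = 0.051 and 0.0612). When libraries were scaled by their size alone, *Plin3* passed the test after neither particle (log2 fold change 0.094 and 0.098), and the median of all genes was shifted by -0.0935 and -0.0788.

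The ratio of the coat genes within a library does not depend on library scaling. Per kb of transcript, *Plin2* was 6.51, 6.19 and 5.82 times *Plin3* in the control libraries. It was 19.0, 19.9 and 18.4 times *Plin3* after VLDL-sized particles and 16.5, 16.9 and 16.1 times after CHYL-sized particles. No treated library came near the control range. The size of such a ratio depends on the length used, here that of the principal transcript. With the length of all exons, *Plin2* was at 97.6 and *Plin3* at 28.3 cpm per kb in control cells. Differences between groups on the log2 scale do not depend on the length. On the log2 scale the ratio was higher by 1.63 and 1.42, and the exact two-sided permutation test gave p = 0.1 for each, the smallest p that 3 libraries against 3 allow.

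*Hilpda*, a small droplet protein that inhibits ATGL, had the next largest rise. The gene spans chr6:29272488-29275446 on the plus strand and has 2 exons. It was weakly expressed in control cells, at 5.38, 6.19 and 6.77 cpm, and reached 18.1, 16.4 and 20.3 cpm after VLDL-sized particles. After CHYL-sized particles the libraries gave 13.2, 13.0 and 16.7 cpm. Treated and control libraries were fully separate, whereas VLDL-sized library 2 was below CHYL-sized library 3. Expression rose 2.98-fold after VLDL-sized particles (log2 fold change 1.58, SE 0.14, limma adjusted p = 1.67e-05) and 2.33-fold after CHYL-sized particles (log2 fold change 1.22, SE 0.15, limma adjusted p = 0.000186). In contrast to *Plin2*, library 3 had the highest *Hilpda* level in each group.

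*G0s2*, the other inhibitor of ATGL, was not detected above 1 count. It lies at chr1:193272161-193273217 within the bounds of *Lamb3* on the opposite strand. The gene was at 0 counts in 8 libraries and at 1 count in CHYL-sized library 3. A count of 0 allows up to 3 counts, or 0.133 cpm at the median depth, counting error only. No fold change can be given, and the ratio of *Pnpla2* to *G0s2* was not computed.

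*Pnpla2*, which encodes ATGL itself, rose moderately. It is located at chr7:141455198-141460743 on the plus strand. Control libraries were tightly grouped at 60.3, 58.1 and 59.8 cpm, VLDL-sized libraries gave 89.5, 82.8 and 84.4 cpm, and CHYL-sized libraries 74.6, 74.4 and 81.2 cpm. The 3 groups formed separate ranges, with control lowest and VLDL-sized highest, where 1426 of 12637 tested genes did not overlap between the particles. The rise was 1.44-fold after VLDL-sized particles (log2 fold change 0.53, SE 0.054, limma adjusted p = 3.9e-05). It was 1.29-fold after CHYL-sized particles (log2 fold change 0.37, SE 0.054, limma adjusted p = 0.000708).

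*Abhd5*, the co-activator of ATGL, is at chr9:122351608-122381524 on the plus strand. The control libraries gave 35.4, 37.7 and 40.8 cpm, the VLDL-sized libraries 43.6, 41.4 and 44.5 cpm, and the CHYL-sized libraries 43.1, 45.0 and 44.3 cpm. The lowest treated library was only just above the highest control. Expression passed the test with a log2 fold change of 0.19 (SE 0.063, limma adjusted p = 0.0401) after VLDL-sized and 0.22 (SE 0.063, limma adjusted p = 0.0255) after CHYL-sized particles. These calls were fragile: the gene was called in 10 and in 12 of 19 alternative analyses. Both calls were lost without control library 1 (limma adjusted p = 0.161 and 0.111), control library 2 (0.0982 and 0.074) or CHYL-sized library 1 (0.0555 and 0.0508) or 2 (0.0557 and 0.0797), and with library size as the only scaling (0.233 and 0.0981). The VLDL-sized call was also lost without VLDL-sized library 1 or 3 (0.0972 and 0.103), and the CHYL-sized call without CHYL-sized library 3 (0.0621). Without the count filter both calls were lost as well (limma adjusted p = 0.105 after VLDL-sized particles). With only the compared groups in the model, the VLDL-sized call was lost (limma adjusted p = 0.0704).

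The ratio of *Pnpla2* to its inhibitor *Hilpda* was lower in the treated libraries. Per kb of transcript the *Pnpla2* level was 6.12, 5.12 and 4.82 times that of *Hilpda* in control libraries, 2.69, 2.76 and 2.27 times after VLDL-sized and 3.10, 3.11 and 2.65 times after CHYL-sized particles. None of the treated libraries reached the lowest control. The log2 ratio differed from control by -1.05 and -0.85 (exact two-sided permutation p = 0.1 for each, the smallest possible). For *Abhd5* to *Pnpla2* the ratio per kb averaged 0.364 ± 0.0276 in control, 0.288 ± 0.0113 in VLDL-sized and 0.328 ± 0.0167 in CHYL-sized libraries (SD, n = 3). The VLDL-sized libraries lay below all controls (log2 difference -0.34, exact two-sided permutation p = 0.1), whereas CHYL-sized and control libraries overlapped (log2 difference -0.15, exact two-sided permutation p = 0.2).

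**Figure D2:**
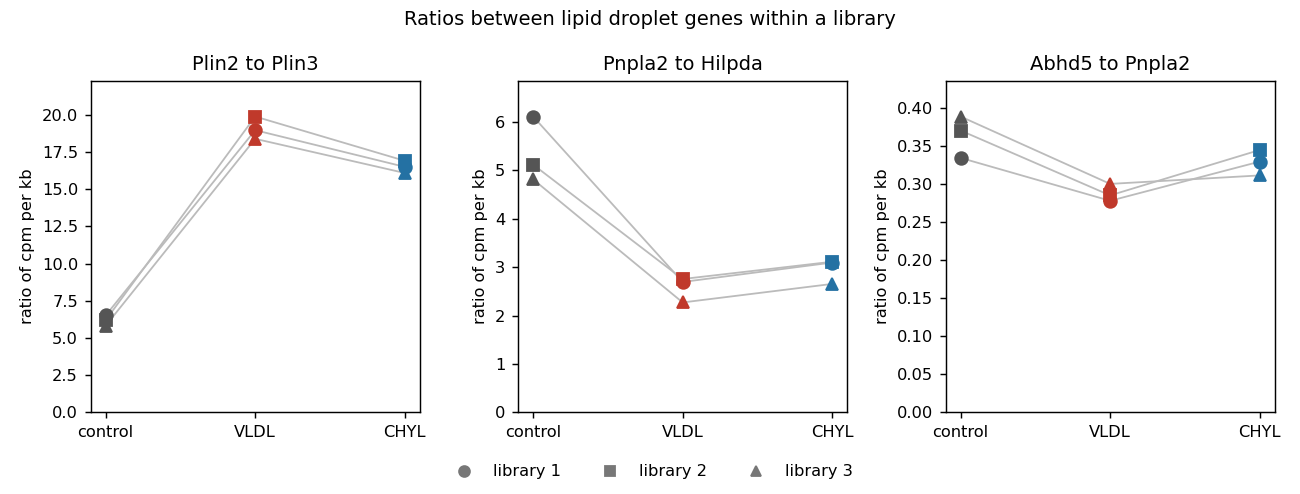
Ratios of the levels per kb of principal transcript of *Plin2* to *Plin3*, *Pnpla2* to *Hilpda* and *Abhd5* to *Pnpla2* in each of the 9 libraries, with grey lines joining libraries of the same number and axes that start at 0. The first ratio lies near 6 in control and between 16.1 and 19.9 in treated libraries, the second is at least 4.82 in control and at most 3.11 in treated libraries, and the third overlaps between control and CHYL-sized libraries.

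*Lipe*, which encodes hormone-sensitive lipase, was the tested gene of the set that fell. It is at chr7:25379527-25398710 on the minus strand. Control libraries gave 24.0, 24.8 and 20.9 cpm, VLDL-sized libraries 16.6, 17.2 and 14.8 cpm, and CHYL-sized libraries 17.8, 17.3 and 14.4 cpm. Every treated library was below every control. Expression was 0.698-fold of control after VLDL-sized particles (log2 fold change -0.52, SE 0.10, limma adjusted p = 0.00266) and 0.709-fold after CHYL-sized particles (log2 fold change -0.50, SE 0.10, limma adjusted p = 0.00498). The antisense gene 4732471J01Rik, which overlaps *Lipe*, was at 0.0426 to 0.435 cpm. Other annotated genes within the bounds of *Abhd5*, *Soat1* and *Nceh1* did not exceed 0.169 cpm in any library. Library 3 was the lowest of its group in all groups.

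*Mgll*, the monoglyceride lipase at chr6:88724412-88828360, was at 2 counts in control library 3, at 1 count in CHYL-sized library 1 and at 0 in the other 7 libraries. Like *G0s2*, it was removed by the filter, and no change was measurable at this depth.

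In the cholesteryl ester branch, *Soat1* rose and *Nceh1* differed less from control. *Soat1* forms cholesteryl esters and lies at chr1:156424525-156474331 on the minus strand. Control libraries gave 466, 465 and 563 cpm, VLDL-sized libraries 659, 646 and 668 cpm, and CHYL-sized libraries 628, 598 and 659 cpm. Control library 3 was well above the other controls but still below all treated libraries. The log2 fold change was 0.41 (SE 0.073, limma adjusted p = 0.00148) after VLDL-sized and 0.34 (SE 0.073, limma adjusted p = 0.00646) after CHYL-sized particles. *Soat2*, the other gene of this activity, stayed near 3 cpm and did not pass the test.

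*Nceh1*, the neutral cholesteryl ester hydrolase, is at chr3:27182965-27284608 on the plus strand. Control libraries gave 422, 442 and 439 cpm, VLDL-sized libraries 507, 511 and 457 cpm, and CHYL-sized libraries 492, 481 and 432 cpm. CHYL-sized library 3 fell inside the control range. The log2 fold change was 0.18 (SE 0.062, limma adjusted p = 0.0471) after VLDL-sized particles, and this call held in 10 of 19 alternative analyses. After CHYL-sized particles it was 0.11 (SE 0.062, 95% CI -0.031 to 0.246, limma adjusted p = 0.243). With the 3 libraries numbered 3 left out, the latter became 0.17 (limma adjusted p = 0.00596). Without control library 1, the former became 0.16 (limma adjusted p = 0.147). The VLDL-sized call was also lost without control library 2 or 3 (0.0845 and 0.07), VLDL-sized library 1 or 2 (0.136 and 0.149) or CHYL-sized library 1 or 2 (0.0527 and 0.0623). Upper-quartile normalization and library size as the only scaling lost it too (limma adjusted p = 0.0528 and 0.359).

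**Figure D3:**
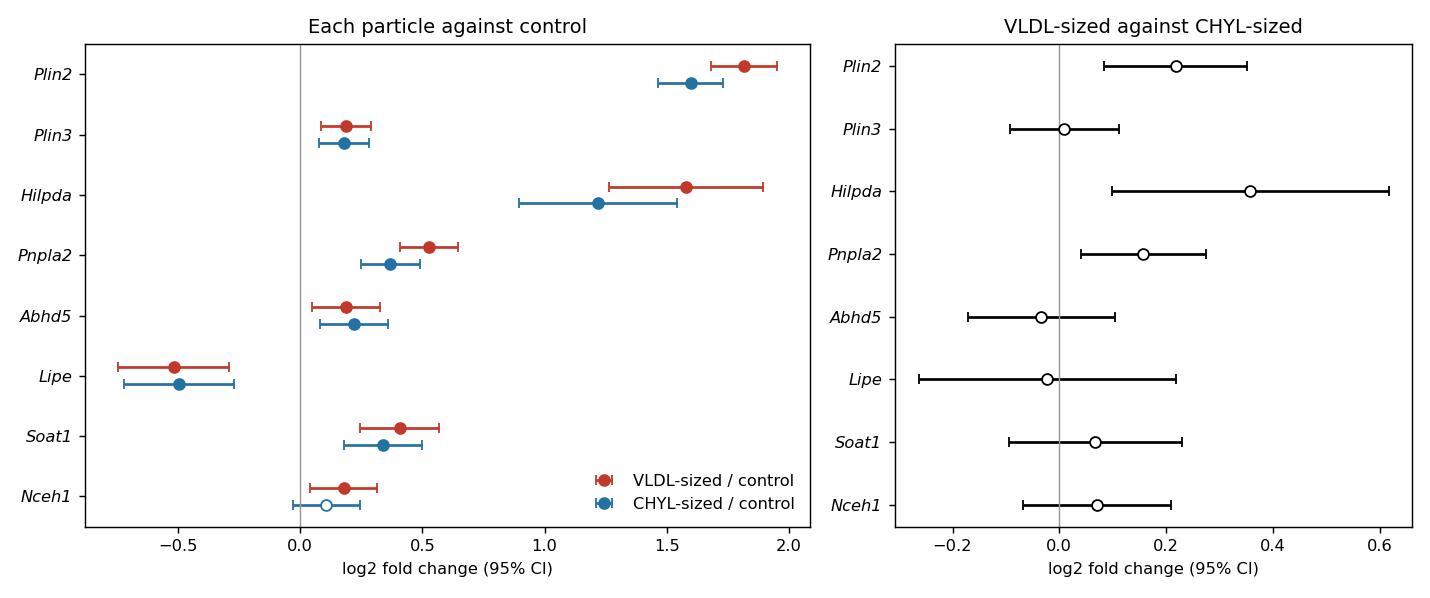
Log2 fold change with its 95% confidence interval for the 8 tested genes, against control for VLDL-sized (red) and CHYL-sized (blue) particles on the left, and between the particles on the right, where filled points passed an adjusted p of 0.05. *Plin2* (1.82 and 1.60) and *Hilpda* (1.58 and 1.22) lie apart from the other genes, *Lipe* is below 0, and no point of the right panel is filled.

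The particle sizes were compared directly with the same model. None of the 8 genes passed the test, nor did any of the 12637 tested genes by limma (percent called 0) or by edgeR's quasi-likelihood test, while 813 genes had an unadjusted p under 0.05 and DESeq2 called 24, none of them in the set. For *Plin2*, VLDL-sized minus CHYL-sized was 0.22 on the log2 scale (95% CI 0.085 to 0.352, limma adjusted p = 0.528). For *Hilpda* it was 0.36 (95% CI 0.099 to 0.617, limma adjusted p = 0.626). For *Pnpla2* it was 0.16 (95% CI 0.040 to 0.275, limma adjusted p = 0.63). These 3 intervals lie above 0 before adjustment for the number of genes. For *Plin2* and *Pnpla2* the libraries of the particles did not overlap, which also held for 1426 of all 12637 tested genes. With all libraries numbered 3 left out, an analysis chosen after these libraries had been seen to stand apart, *Plin2* (0.24, limma adjusted p = 0.00631) and *Hilpda* (0.39, limma adjusted p = 0.0453) did pass, among 257 genes. With the library number as a block, *Plin2* passed as well (0.22, limma adjusted p = 0.0239), among 147 genes, although the labels do not say that a number marks a shared experiment. *Soat1* and *Nceh1* had differences of 0.068 (95% CI -0.094 to 0.229) and 0.071 (95% CI -0.068 to 0.209). The intervals for *Plin3* (-0.093 to 0.111), *Abhd5* (-0.172 to 0.105) and *Lipe* (-0.264 to 0.219) also included 0. A difference within these bounds is compatible with the data, and the missed threshold does not show that the particles act alike.

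Per kb of transcript, *Plin2* was the most abundant of the 10 genes in every group. In control cells it averaged 182 ± 12.9 cpm per kb (SD, n = 3), followed by *Nceh1* at 96.9 ± 2.42, *Soat1* at 59.5 ± 6.75, *Pnpla2* at 33.0 ± 0.636, *Plin3* at 29.4 ± 0.591 and *Abhd5* at 12.02 ± 0.854. *Lipe* at 6.43 ± 0.562 and *Hilpda* at 6.23 ± 0.711 overlapped on this scale. After VLDL-sized particles *Plin2* averaged 638 ± 32.8 cpm per kb and moved from rank 394 to rank 106 among 12636 genes, and after CHYL-sized particles it averaged 548 ± 13.7, at rank 129. *Hilpda* moved from rank 7222 to ranks 3934 and 4644. With VLDL-sized particles its level of 18.6 ± 1.99 exceeded that of *Abhd5* (13.7 ± 0.501) without overlap, whereas with CHYL-sized particles the levels of 14.6 ± 2.11 and 13.99 ± 0.300 overlapped. Some of this order depended on the length used. With the length of all exons in place of the principal transcript, *Pnpla2* was below *Plin3* (19.7 against 28.3 cpm per kb in control cells) and *Lipe* below *Hilpda* (3.94 against 5.55). In CHYL-sized cells *Hilpda* was then at 12.96 and *Abhd5* at 7.41 cpm per kb.

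**Figure D4:**
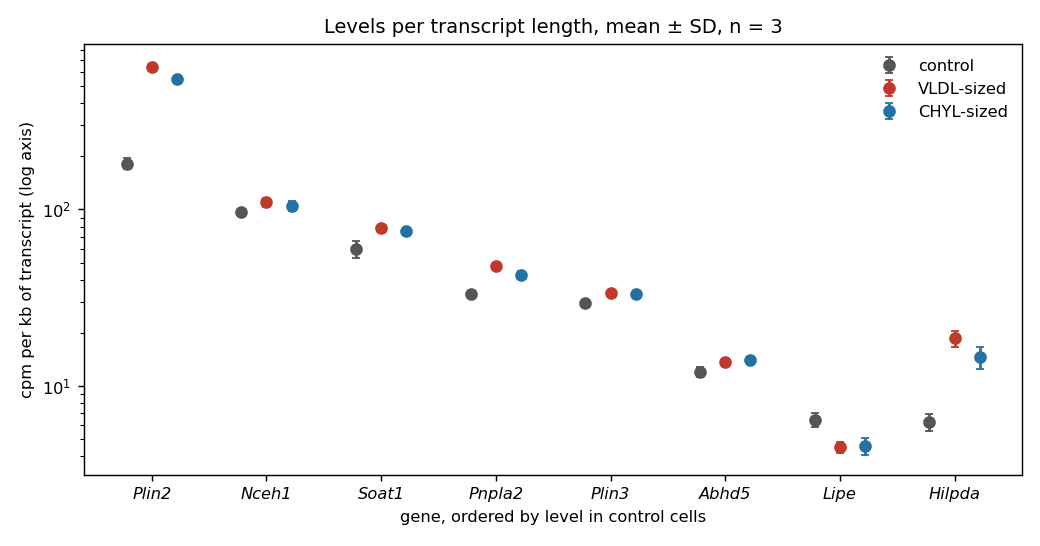
Mean ± SD (n = 3) of cpm per kb of principal transcript on a log axis, for the 8 tested genes in the order of their control levels, in control (grey), VLDL-sized (red) and CHYL-sized (blue) cells. *Plin2* is highest in all groups, and *Hilpda*, level with *Lipe* in control cells, is above it in treated cells.

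Other genes of droplet metabolism were examined as lists, whose counts are to be read against the 35.6% and 25.7% of all tested genes called after VLDL-sized and CHYL-sized particles. Of 15 genes of the droplet coat and its biogenesis, 14 were found and 6 tested: 2 rose after VLDL-sized particles and none fell (median log2 fold change 0.135), and after CHYL-sized particles 1 rose (median 0.157). *Rab18*, a GTPase of the droplet surface, rose by 0.58 and 0.42 (limma adjusted p = 3.69e-06 and 5.3e-05). *Fitm2*, which acts in droplet formation at the endoplasmic reticulum, rose by 0.37 after VLDL-sized particles (limma adjusted p = 0.00547) and was at 0.25 after CHYL-sized ones (limma adjusted p = 0.0513). The perilipins of fat and oxidative tissues, *Plin1*, *Plin4* and *Plin5*, had at most 2 counts in any library, and *Cidea* and *Cidec* were at 0.

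Of 11 other neutral lipid hydrolases 7 were tested, with 2 higher and 1 lower after either particle (median log2 fold change -0.105 and -0.0575). The lysosomal acid lipase gene *Lipa* rose by 1.06 and 0.99 on the log2 scale, and *Lpl*, the secreted lipoprotein lipase, by 0.22 and 0.21. The diacylglycerol lipase *Daglb* fell (log2 fold change -0.77 and -0.66, limma adjusted p = 9.24e-05 and 0.000367). Unlike these, *Pnpla3* had at most 3.94 counts in any library.

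Among the 18 genes of triglyceride and cholesteryl ester synthesis 16 were tested: 1 rose and 5 fell after VLDL-sized particles (median 0.0338), and 0 rose and 4 fell after CHYL-sized particles (median 0.0177), so that the 6 and 4 genes called were close to the share called among all tested genes. The phosphatidate phosphatase *Lpin1* fell from 20.5 to 6.09 and 6.11 cpm (log2 fold change -1.75 for both, limma adjusted p = 1.88e-06 and 2.69e-06). *Acsl3*, an acyl-CoA synthetase of the droplet surface, went from 138 to 58.2 and 60.7 cpm (log2 fold change -1.24 and -1.18, limma adjusted p = 5.18e-07 and 9.03e-07). *Agpat2*, an acyltransferase of the same route, was lower by a smaller amount (log2 fold change -0.31 and -0.24, limma adjusted p = 0.0108 and 0.0426). The weakly expressed *Gpat3* rose after VLDL-sized particles (log2 fold change 0.83, limma adjusted p = 0.008) and was at 0.28 after CHYL-sized ones (limma adjusted p = 0.376). *Dgat1*, which adds the last fatty acid, stood at 15.2 cpm in control and at 15.3 and 15.1 cpm in treated cells. The weakly expressed *Dgat2*, the other gene of that step, was at 5.05 cpm in control and at 3.64 and 3.20 cpm after treatment. It fell after CHYL-sized particles (log2 fold change -0.64, limma adjusted p = 0.0249) and did not pass the test after VLDL-sized ones (-0.46, limma adjusted p = 0.0651).

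Genes known to respond to PPARs and fatty acids were mixed: of 15 tested, 6 rose after VLDL-sized and 5 after CHYL-sized particles and none fell (medians 0.0804 and 0.0235). The mitochondrial importer of fatty acids *Cpt1a* rose from 41.4 to 128 and 126 cpm (log2 fold change 1.63 and 1.60, limma adjusted p = 2.65e-08 and 3.79e-08). *Slc25a20*, the carnitine carrier, rose by 0.72 and 0.75, and *Acadvl*, a mitochondrial dehydrogenase, by 0.34 and 0.25. *Angptl4*, an inhibitor of lipoprotein lipase, was at 11.2 cpm in control and at 10.3 and 10.6 cpm after treatment, and did not pass the test. *Pdk4* had at most 1 count in any library. The fatty acid transporter *Cd36* had the largest log2 fold change of this list after CHYL-sized particles (2.03, limma adjusted p = 0.041), but at no more than 13 counts in any library.

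Of 13 tested HIF target genes, 8 rose and 1 fell after VLDL-sized particles (median 0.326), and 6 rose and 1 fell after CHYL-sized particles (median 0.348). The glucose transporter *Slc2a1* rose from 78.3 to 245 and 225 cpm (log2 fold change 1.65 and 1.53, limma adjusted p = 5.54e-06 and 1.48e-05). *Bnip3*, a mitophagy receptor, rose by 0.98 and 0.85, and *P4ha1*, a subunit of collagen prolyl hydroxylase, by 0.70 and 0.51. *Vegfa* was below 1 cpm on average in all groups and had a log2 fold change of 1.31 (limma adjusted p = 0.0262) after VLDL-sized and of 0.59 (limma adjusted p = 0.357) after CHYL-sized particles, and the particles did not differ by the test. *Ldha*, in contrast, was at 807 cpm in control and at 843 and 838 cpm in treated cells.

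For 10 tested regulators of the 10 genes, 4 rose and 2 fell after VLDL-sized particles (median 0.0268), and 3 rose and 2 fell after CHYL-sized particles (median -0.0378). *Ppard*, a fatty acid receptor, rose by 0.98 and 0.63 (limma adjusted p = 7.02e-05 and 0.00234), whereas *Pparg* was below 2 cpm on average and *Ppara* was not tested. Of the hypoxia-inducible factors, *Epas1* fell (log2 fold change -0.72 and -0.73, limma adjusted p = 0.00488 and 0.00686) and *Hif1a* was at 83.7, 88.6 and 84.4 cpm in control, VLDL-sized and CHYL-sized cells and did not pass the test. *Prkaca*, a catalytic subunit of the kinase that activates lipolysis, fell (log2 fold change -0.45 and -0.37), and *Cop1*, a ubiquitin ligase of ATGL, rose by 0.37 and 0.33. Some macrophage markers changed as well: *Fcgr1* (log2 fold change -0.83 and -0.68) and *Cd14* (-0.54 and -0.47) fell after both particles, and *Spi1* (-0.25) and *Itgam* (-0.18) fell after VLDL-sized particles. *Cd68* rose after VLDL-sized particles (log2 fold change 0.17, limma adjusted p = 0.0277). In all, 1 of the 10 markers rose and 5 fell after VLDL-sized and 2 fell after CHYL-sized particles. Among all tested genes 35.6% and 25.7% were called. The part of the markers in the changes of the droplet genes was not tested.

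**Figure D5:**
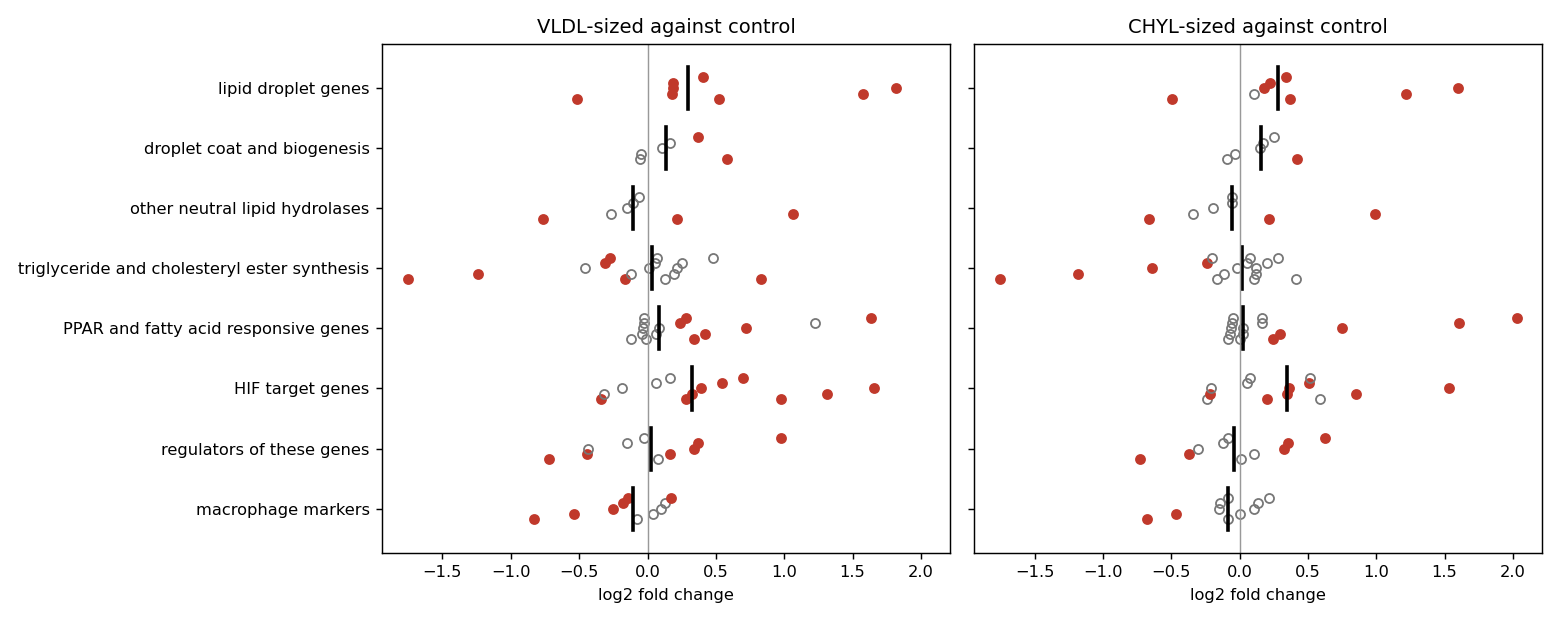
Log2 fold change against control of every tested gene of the 8 lists shown for VLDL-sized (left) and CHYL-sized particles (right), with red filled points for genes past an adjusted p of 0.05, open points for the others and a black line at the list's median. Of these 8 lists, the droplet genes and the HIF targets have the medians furthest above 0 (0.297 and 0.326 on the left, 0.280 and 0.348 on the right), and *Lpin1* is the lowest point of the synthesis list.

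The genes whose pattern over the 9 libraries was most like that of *Plin2* were sought among 10595 others with a mean of at least 50 counts, using Pearson's r of log2 cpm. They were *Gbe1*, a glycogen branching enzyme (r = 0.999), the amino acid transporter *Slc43a2* (0.998), *Acvrl1* (0.997), *Gabarapl1* (0.997) and *Gstm1* (0.996), the last of a family with closely related members whose reads may be split. The nearest to *Hilpda* were *Pvr* (0.998), *Ecpas* (0.997), 1810013L24Rik (0.996), *Pkp2* (0.995) and *Afg3l2* (0.994). *Plin2* and *Hilpda* themselves had r = 0.957. The points share 3 treatment groups, so these values describe mainly the step between control and treated libraries.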

How the data were processed

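RNAseq of 9 libraries (3 groups of 3) was used. Per the labels and methods, the authors made an estimated count per gene with Salmon 0.14.1 on GENCODE transcripts of GRCm38.p6, summarized with tximport, and deposited it. Counts scaled for transcript length are described in the methods. Among deposited values over 10, a share of 58.3% was whole, and the table was treated as unscaled. Column names matched the labels of all 9 libraries. Symbols matched 54346 of 54432 identifiers.

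A gene was tested if 3 or more libraries exceeded 10 counts. The 12637 genes kept were normalized by TMM (edgeR 4.0.16) and fitted with limma 3.58.1 and voom weights in R 4.3.3, in 1 model of all libraries without a replicate block, as the methods describe apart from the scaling. Changes were called at a Benjamini-Hochberg adjusted p under 0.05 over all tested genes. Ratios used log2 counts with 0.5 added and exact two-sided permutation tests. Counts were rounded for edgeR's quasi-likelihood test and DESeq2 1.42.0 only. The steps were tested on simulated data. The planted changes were larger than those of *Plin3*, *Pnpla2*, *Abhd5*, *Lipe*, *Soat1* and *Nceh1*, so changes as small as these were not covered. Whether the libraries were stranded is not given in the sources used here. Gene bounds and transcript lengths (principal transcript) are from a GENCODE release of GRCm38 one before that of the authors, and promoter sequences from RefSeq, where all 10 genes matched.

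The 10 genes, the lists and the tests were chosen with earlier results of these data known. Named genes are the 10, up to 4 genes of each list with the largest log2 fold change among those called after VLDL-sized particles, and the 5 genes nearest to *Plin2* and to *Hilpda*. *Plin1*, *Plin4*, *Plin5*, *Cidea*, *Cidec*, *Pnpla3*, *Soat2*, *Dgat1*, *Dgat2*, *Angptl4*, *Pdk4*, *Cd36*, *Ldha*, *Pparg*, *Ppara*, *Hif1a* and *Cd68*, and the markers named at 0 or as detected, are list genes named after their values were seen. Some genes that this rule selects are not reported here. Alternatives were other tests, normalizations and filters, the block, and libraries left out.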

Additional observations from a re-analysis of the deposited data

How the results depend on the processing

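*Plin2*, *Hilpda*, *Pnpla2*, *Lipe* and *Soat1* kept their direction and their call against control in all 19 alternative analyses for either particle, and the log2 ratios kept their direction. With library size as the only scaling, 5 of the 8 genes were called after VLDL-sized particles instead of 8, as *Plin3*, *Abhd5* and *Nceh1* were lost, the share of higher genes among all calls fell from 49.9% to 31.3% (CHYL-sized from 49.6% to 29.8%), and *Plin3* between the particles changed sign (-0.0041). Between the particles, the number of genes called rose from 0 to 24 with DESeq2, to 147 with the replicate block and to 257 without the libraries numbered 3, and with 1 library left out it lay between 0 and 1. Of the 8 genes, 1 was called with the block (*Plin2*, 0.22, adjusted p = 0.0239) and 2 without the libraries numbered 3. With 1 library left out, *Plin3* between the particles lay between -0.0246 and 0.0276 and *Lipe* between -0.117 and 0.0398 on the log2 scale. The block moved the calls from 4500 to 6058 after VLDL-sized and from 3249 to 4949 after CHYL-sized particles. Whether the numbers pair the libraries depended on the genes: deviations of same-numbered libraries correlated between 0.000209 and 0.277 over all tested genes, so not every pair was above 0.1, and between 0.156 and 0.605 over the 10596 genes with at least 50 counts on average, a check added after the first and after the calls of the block were known. In that second check, libraries 1 and 2 of the 2 particles correlated better with the other number (0.311 and 0.325) than with their own (0.167 and 0.227). CHYL-sized and control libraries 1 and 2 did so too (0.273 and 0.307 against 0.241 and 0.156). The libraries numbered 3 of the 2 particles correlated at 0.605. Deviations were taken from the mean of 3 libraries, so a shift shared by the libraries numbered 3 also makes libraries 1 and 2 alike. These values therefore cannot decide whether numbers 1 and 2 pair. The cause of these differences was not tested. Depth limits *G0s2* and *Mgll*, which stayed at or below 3 counts.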
